A study of Mus musculus with 12 samples.

Results

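The genes described here run the cell division cycle in the colon epithelium of mice, from the licensing of replication origins to the separation of chromosomes. They are 32 genes named in a list, of which 30 were measured by a probe set that the array annotation gives a single gene symbol, out of 12393 genes named in that way. Where several probe sets carried the symbol of a gene, the brightest over all arrays stood for it. Ccnb1 and Cdca8 were not analysed here. Of the measured genes 13 had 1 probe set and 17 had several, 57 probe sets in all. The mean log2 signal of the 30 genes ran from 6.00 to 6.68 over the arrays. Tyms and Kif20a lay below the lower quartile of every array (4.66 to 4.78), Aurkb in 9 arrays and Bub1 in 8, so that little can be read from these 4 genes.

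RNA of colon epithelium, scraped from the tissue, was hybridised to 12 Affymetrix mouse 430A arrays. Male mice of 6 to 8 weeks, either wild type C57BL/6 or cytochrome P450 reductase null (POR-null), spent 14 days on a soya-free powdered diet. For the last 24 hours they ate either that powder (control) or the powder with quercetin, a plant flavonol, at 6200 ppm, which amounts to 7 mg for each mouse. The 4 groups were wild type control, wild type quercetin, POR-null control and POR-null quercetin. Each group had 3 arrays, and each array held RNA pooled from 3 mice, so that a group stands for 9 mice and no value belongs to 1 animal. The replicates are pools of different animals, and the spread between them holds that of the animals and of the laboratory steps together. POR passes electrons to the microsomal cytochromes P450. In the literature this null line lacks it in hepatocytes, which the labels do not state, and the deleted gene is not analysed here. The groups allow the effect of quercetin to be read in either genotype, that of genotype on either diet, and the interaction of the pair.

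In the colon, cells divide in the lower part of the crypt and stop dividing as they move up and mature into absorptive and goblet cells. Before S phase the MCM helicase is loaded on DNA and nucleotides are supplied, a program that E2F factors switch on. Before mitosis the cyclin-dependent kinase Cdk1 with cyclins A and B, the Aurora and Polo kinases, the spindle checkpoint and the anaphase promoting complex take over, and many of these genes share CCAAT boxes and a cell cycle homology region (CHR) in their promoters. In whole tissue, fewer dividing cells and less RNA in each of them cannot be told apart, and that holds for every value below.

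The promoters of the genes are shown because the background above ties these elements to the replication and mitotic genes, and because most of them moved together from pool to pool as described below. RefSeq promoter windows (GRCm38.p6, 250 bases before to 50 after the start) were found for 25 of the 30 measured genes. There were none for Mcm4, Ccna2, Tpx2, Aurkb and Kif20a. Both strands were searched for the CCAAT box (CCAAT), for the CHR (TTTGAA or TTCGAA) and for an E2F site (TTTGGCGC, TTTCCCGC, TTTGCCGC or TTTCGCGC). The stretches below hold the 150 bases before the start, read 5′ to 3′ along the gene. Capitals mark matches, so that ATTGG is a CCAAT box and TTCAAA a CHR on the other strand. The CCAAT and CHR words can share at most 1 letter at their ends, while a pair of E2F words on opposite strands can share 4 letters, as in the first match of Mcm6.

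The first 4 stretches belong to mitotic genes. They lie at chr10:69352913-69353062 (minus strand) for Cdk1, at chr11:99024190-99024339 (minus strand) for Top2a, at chr7:135716380-135716529 (minus strand) for Mki67 and at chr2:164769779-164769928 (plus strand) for Ube2c. The last 2 belong to genes of replication and nucleotide supply, at chr1:128359706-128359855 (minus strand) for Mcm6 and at chr12:24708104-24708253 (plus strand) for Rrm2.
Cdk1: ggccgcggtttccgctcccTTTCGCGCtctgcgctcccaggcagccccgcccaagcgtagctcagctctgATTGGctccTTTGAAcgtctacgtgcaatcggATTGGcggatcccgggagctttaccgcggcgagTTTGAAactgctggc
Top2a: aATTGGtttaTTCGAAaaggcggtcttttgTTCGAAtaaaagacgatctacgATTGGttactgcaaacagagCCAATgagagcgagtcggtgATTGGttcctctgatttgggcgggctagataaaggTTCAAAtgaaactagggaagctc
Mki67: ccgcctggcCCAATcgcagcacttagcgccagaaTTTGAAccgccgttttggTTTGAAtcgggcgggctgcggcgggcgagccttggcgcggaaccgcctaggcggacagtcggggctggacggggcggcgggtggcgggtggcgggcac
Ube2c: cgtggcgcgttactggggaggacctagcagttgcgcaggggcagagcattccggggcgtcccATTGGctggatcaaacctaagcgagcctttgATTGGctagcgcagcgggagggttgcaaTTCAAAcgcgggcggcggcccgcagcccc
Mcm6: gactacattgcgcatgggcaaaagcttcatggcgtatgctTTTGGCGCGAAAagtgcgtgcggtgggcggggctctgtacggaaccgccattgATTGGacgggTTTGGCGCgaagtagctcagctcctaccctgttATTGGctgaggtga
Rrm2: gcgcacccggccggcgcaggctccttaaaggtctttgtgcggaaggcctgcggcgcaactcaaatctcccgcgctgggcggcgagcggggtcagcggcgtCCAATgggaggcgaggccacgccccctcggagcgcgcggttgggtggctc

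Of the 15 mitotic genes with a window, 13 (86.7%) held a CHR and the same 13 a CCAAT box, the exceptions being Birc5 and Nusap1. Both elements occurred together in 2 of the 10 replication and nucleotide genes (20%) and in 7.7% of all 27025 promoters of the table. A CCAAT box, with or without a CHR, was found in 8 of 10 replication and nucleotide genes (80%) and in 37.9% of all promoters, and the CHR in 19.4% of all promoters. An E2F site was found in 4 of 10 replication and nucleotide genes (40%), which were Mcm3, Mcm5, Mcm6 and Mcm7. It was found in 1 of 15 mitotic genes (6.67%), Cdk1, and in 2.32% of all promoters. A match describes the letters only and is neither a bound site nor a cause of any value here.

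None of the 30 genes passed the threshold in any comparison. By limma, with p adjusted by Benjamini and Hochberg over 22626 probe sets, 0 genes were called in each of 7 comparisons, and 0% of all probe sets were called as well (the percentage over all 7 pooled). At an unadjusted p under 0.05 there were also 0 of 30 genes in each comparison. The share of all probe sets at that level was 5.15% for quercetin in wild type mice, 2.82% for quercetin in POR-null mice, 6.79% for genotype on control diet and 2.39% for genotype on quercetin diet. It was 4.74% for the interaction, 3.25% for quercetin averaged over the genotypes and 4.18% for genotype averaged over the diets. With 3 pools a group the standard error (SE) of a difference was 0.18 at the median of the 30 genes and ran from 0.11 to 0.33, so a missed threshold does not show that the groups were alike.

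**Figure D1:**
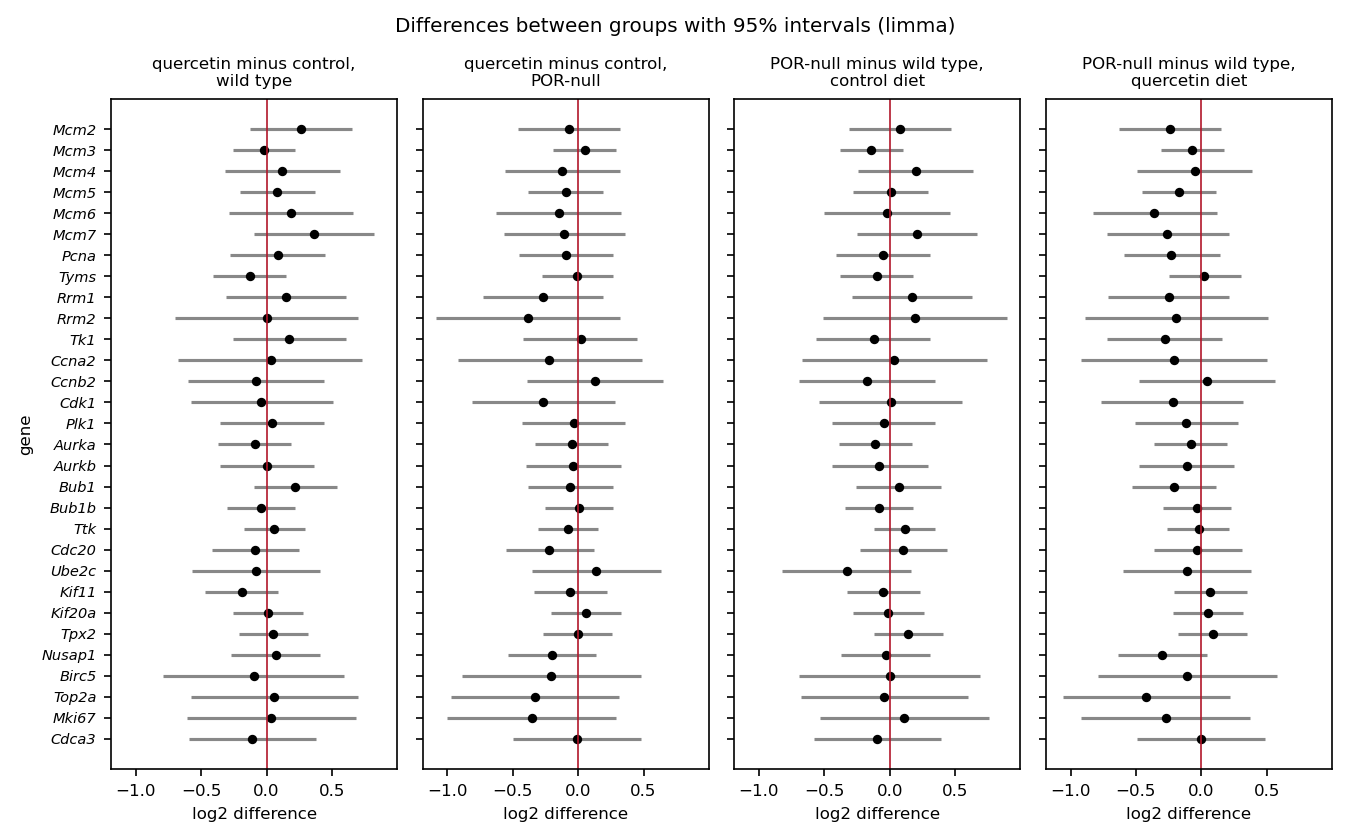
Log2 differences of the 30 genes (points) with 95% intervals (bars) from limma, in the 4 group comparisons, genes ordered by role. Every interval crosses 0; the differences run from -0.42 (Top2a, genotype on quercetin diet) to 0.36 (Mcm7, quercetin in wild type mice).

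In wild type mice, genes of replication stood slightly higher on quercetin and mitotic genes were divided. Of the 30 genes 17 had a higher mean and 11 a lower one, with a median difference of 0.03 against 0 over all probe sets. Among the 11 genes of replication and nucleotide supply 8 were higher and 2 lower (median 0.12), and among the 19 mitotic genes 9 were higher and 9 lower (median 0). The differences ran from -0.19 for Kif11 to 0.36 for Mcm7. Single pools set the count here as well, which was 12 higher and 18 lower without wild type quercetin array 1 and 23 higher and 7 lower without wild type control array 1.

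Mcm7, a subunit of the MCM helicase, had log2 signals of 8.50, 8.13 and 8.21 in the wild type control arrays and 8.75, 8.72 and 8.45 in the wild type quercetin arrays. Control array 1 lay above quercetin array 3, so the groups overlapped. The difference was 0.36 (SE 0.21, 95% interval -0.10 to 0.82, limma adjusted p = 0.957). The other probe sets of Mcm7 differed by 0.25, -0.03 and 0.08. Mcm2, another helicase subunit, had 6.04, 5.97 and 6.07 on control diet and 6.37, 6.40 and 6.09 on quercetin. These groups did not overlap, although quercetin array 3 came within 0.02 of control array 3, and the difference was 0.26 (SE 0.18, interval -0.13 to 0.65, limma adjusted p = 0.957). The second probe set of Mcm2, with a mean of 6.05, differed by 0.06. Mcm2 was the only 1 of the 30 genes without overlap here, where 9.31% of all probe sets had none. Bub1, a kinase of the spindle checkpoint at low signal, had 4.62, 4.46 and 4.40 on control diet and 4.73, 4.47 and 4.94 on quercetin (difference 0.22, SE 0.15, limma adjusted p = 0.957), with overlap. The second probe set of Bub1 differed by -0.02.

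The markers of dividing cells lay close together in these groups. Mki67, the Ki-67 protein that coats mitotic chromosomes, had 7.79, 7.57 and 7.19 in wild type control arrays and 7.49, 7.58 and 7.58 on quercetin (0.03, interval -0.61 to 0.68). Top2a, the topoisomerase that untangles sister DNA, had 7.69, 7.55 and 7.15 against 7.72, 7.45 and 7.39 (0.06, interval -0.58 to 0.70). In both genes the quercetin values lay within or next to the range of the control values, so the groups overlapped.

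Cdk1, the kinase that drives entry into mitosis, had 8.23, 7.66 and 7.73 against 8.14, 7.55 and 7.82 (-0.04, interval -0.58 to 0.51). Rrm2, the regulated subunit of ribonucleotide reductase, had 6.38, 6.04 and 5.99 against 6.28, 5.97 and 6.16 (0.00, interval -0.70 to 0.70). In each diet the first array was the highest for both genes. Pcna, the sliding clamp of DNA polymerases, had 9.06, 8.98 and 8.98 against 9.11, 9.01 and 9.16 (0.09, interval -0.28 to 0.45). Aurka, the Aurora kinase of the spindle poles, had 6.33, 6.20 and 6.31 against 6.12, 6.17 and 6.28 (-0.09, interval -0.37 to 0.19). The limma adjusted p of these 6 genes was 0.978 or above, and leaving out 1 array turned the sign for Cdk1 (without control array 1 or quercetin array 2), Top2a (control array 3 or quercetin array 1) and Mki67 (control array 3).

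In POR-null mice most of the genes had a lower mean on quercetin, and the direction rested on single pools. Of the 30 genes 24 were lower and 6 higher (median -0.07, all probe sets 0.01), with differences from -0.38 for Rrm2 to 0.14 for Ube2c. Replication and nucleotide genes were lower in 9 of 11 cases (median -0.09) and mitotic genes in 15 of 19 (median -0.06). Without POR-null quercetin array 1 the count turned to 18 higher and 12 lower, and without POR-null control array 1 to 20 higher and 10 lower. Without POR-null control array 3 it was 29 lower and 1 higher, and 6 genes (Mcm2, Rrm2, Cdc20, Birc5, Top2a and Mki67) then had an unadjusted p under 0.05, against 7.64% of all probe sets; by limma 0 passed after adjustment.

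Cdc20, which activates the anaphase promoting complex, had 7.69, 7.29 and 6.96 in POR-null control arrays and 6.87, 7.21 and 7.21 on quercetin, a difference of -0.22 (SE 0.15, interval -0.55 to 0.12, limma adjusted p = 1). Rrm1, the large subunit of ribonucleotide reductase, had 7.43, 6.58 and 6.47 against 6.27, 6.68 and 6.71 (-0.27, SE 0.21, interval -0.73 to 0.19, limma adjusted p = 1). Its control array 1 stood far above all others, and without that array the sign turned to 0.03. The second probe set of Rrm1, with a mean of 6.70, differed by 0.11, the other way. Nusap1, which binds spindle microtubules near chromosomes, had 6.27, 5.73 and 5.81 against 5.47, 5.81 and 5.94 (-0.20, SE 0.16, interval -0.54 to 0.14, limma adjusted p = 1). Its second probe set, at a mean of 4.28, differed by 0.20, the other way. All 3 genes overlapped between the diets.

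Mki67 had 8.32, 7.69 and 6.88 in POR-null control arrays and 6.87, 7.73 and 7.23 on quercetin (-0.35, interval -1 to 0.29). Top2a had 7.95, 7.56 and 6.76 against 6.45, 7.52 and 7.32 (-0.33, interval -0.97 to 0.31). The control arrays spanned more than 1 log2 unit in both genes and covered most of the quercetin range. Rrm2 had 6.96, 6.67 and 5.36 against 5.56, 6.38 and 5.90 (-0.38, interval -1.09 to 0.32). Cdk1 had 8.32, 7.91 and 7.41 against 7.15, 7.95 and 7.74 (-0.27, interval -0.81 to 0.28). In these 4 genes control array 1 was the highest of the control arrays and array 3 the lowest, while quercetin array 1 was the lowest of its group.

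Pcna had 9.25, 8.98 and 8.64 in POR-null control arrays against 8.52, 8.86 and 9.22 on quercetin (-0.09, interval -0.45 to 0.27). Mcm2 had 6.34, 6.38 and 5.61 against 5.82, 6.20 and 6.11 (-0.07, interval -0.46 to 0.32). Aurka had 6.33, 6.29 and 5.88 against 5.95, 6.31 and 6.08 (-0.05, interval -0.33 to 0.23). The diets overlapped in all 3 genes. For each of them the sign turned without control array 1 and without quercetin array 1, and for Mcm2 and Aurka also without control array 2. The only 1 of the 30 genes without overlap was Ttk, a checkpoint kinase, where 6.75% of all probe sets had none. It had 5.03, 5.04 and 4.99 on control diet and 4.91, 4.95 and 4.96 on quercetin, a difference of -0.08 in arrays that hardly varied.

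Between the genotypes on control diet the 30 genes were evenly divided. There were 13 higher and 16 lower in POR-null mice (median -0.01, as over all probe sets), from -0.33 for Ube2c to 0.21 for Mcm7. The split was 25 higher and 5 lower without POR-null control array 3, and 5 higher and 25 lower without POR-null control array 1. Ube2c, the ubiquitin-conjugating enzyme that works with the anaphase promoting complex, had 7.14, 7.13 and 6.97 in wild type and 7.26, 6.86 and 6.13 in POR-null control arrays (-0.33, SE 0.23, interval -0.82 to 0.16, limma adjusted p = 0.797). POR-null array 1 was above and array 3 far below all wild type values. Mcm3, a helicase subunit, had 6.61, 6.40 and 6.39 against 6.34, 6.51 and 6.12 (-0.14, SE 0.11, interval -0.38 to 0.10, limma adjusted p = 0.833), and its other 4 probe sets differed by 0.24, -0.03, 0.06 and -0.17.

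Tpx2, which activates Aurora A on the spindle, had 5.15, 4.90 and 4.92 in wild type and 5.17, 5.18 and 5.05 in POR-null control arrays (0.14, SE 0.12, interval -0.12 to 0.41, limma adjusted p = 0.856). Wild type array 1 lay within the POR-null range. Ttk, with 4.89, 4.87 and 4.95 in wild type control arrays, was lower there than in every POR-null control array. It was the only 1 of the 30 genes without overlap, where 9.67% of all probe sets had none. The difference on control diet was 0.11 for Mki67 (interval -0.53 to 0.76), -0.04 for Top2a (-0.68 to 0.60), 0.01 for Cdk1 (-0.54 to 0.55) and 0.19 for Rrm2 (-0.51 to 0.90). It was -0.05 for Pcna (interval -0.41 to 0.31), 0.08 for Mcm2 (-0.31 to 0.47) and -0.11 for Aurka (-0.39 to 0.17), and in each of these 7 genes leaving out 1 array could turn the sign. The array was POR-null control array 3 for Pcna and Aurka, array 1 for Rrm2 and array 1 or 2 for Mcm2. For Mki67 it was POR-null control array 1 or wild type control array 3, for Top2a POR-null control array 3 or wild type control array 1, and for Cdk1 either POR-null control array 1 or 2 or wild type control array 2 or 3.

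On the quercetin diet 24 of the 30 genes had a lower mean in POR-null than in wild type mice and 5 a higher one (median -0.11, all probe sets -0.01). Of the 11 replication and nucleotide genes 10 were lower (median -0.23) and of the 19 mitotic genes 14 (median -0.11). Without POR-null quercetin array 1 the 30 genes stood at 15 higher and 15 lower. Nusap1 had 6.21, 6.01 and 5.90 in wild type and 5.47, 5.81 and 5.94 in POR-null quercetin arrays, a difference of -0.30 (SE 0.16, interval -0.64 to 0.04, limma adjusted p = 0.998). POR-null array 3 overlapped with wild type array 3, and the second probe set differed by 0.22, the other way.

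Mcm6, a helicase subunit, had 7.82, 7.27 and 7.22 in wild type and 6.63, 7.13 and 7.48 in POR-null quercetin arrays (-0.36, SE 0.22, interval -0.83 to 0.12, limma adjusted p = 0.998). Wild type array 1 was the highest of all 12 and POR-null array 1 the lowest, while the other arrays overlapped. For Top2a the difference was -0.42 (SE 0.30, interval -1.06 to 0.22), with POR-null quercetin array 1, at 6.45, the lowest of all 12 arrays. It was -0.27 for Mki67 (interval -0.92 to 0.37), -0.22 for Cdk1 (-0.77 to 0.32) and -0.19 for Rrm2 (-0.89 to 0.51). It was -0.23 for Pcna (interval -0.59 to 0.14), -0.24 for Mcm2 (-0.63 to 0.15) and -0.08 for Aurka (-0.36 to 0.20). Among these genes the sign turned only for Cdk1, to 0.01, without POR-null quercetin array 1. Rrm1 was the only 1 of the 30 genes without overlap, by 0.01 between POR-null array 3 and wild type array 3, where 6.82% of all probe sets had none.

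The response to quercetin differed between the genotypes by a median of -0.15 over the 30 genes, that is POR-null minus wild type (all probe sets 0.01), with 21 lower and 9 higher. The standard error of this interaction was 0.26 at the median, so the size lay within the error of most single genes. Lists of markers of other cells ranged widely in this contrast. The median was 0.04 for 9 absorptive colonocyte genes, -0.14 for 8 goblet cell genes and -0.16 for 9 T and NK cell genes. The lists farthest from 0 differed by more than the 30 genes. The median was -2.10 for 6 MHC class II genes of antigen-presenting cells, -1.46 for 10 B and plasma cell genes and -1.87 for 10 smooth muscle genes, each list lower in all its genes, and 3.02 for 10 pancreatic acinar genes, all higher. At an unadjusted p under 0.05 there were 5, 7, 0 and 8 of these genes in that order, against 4.74% of all probe sets. By limma 0 passed after adjustment, and the part of these lists in the values of the 30 genes was not tested. The smallest p belonged to Mcm7 (-0.47, SE 0.30, interval -1.12 to 0.19), Rrm1 (-0.42, SE 0.30, interval -1.07 to 0.23) and Bub1 (-0.28, SE 0.21, interval -0.73 to 0.18), each at a limma adjusted p of 0.998. The second probe set gave -0.01 for Rrm1 and -0.03 for Bub1, and the others of Mcm7 gave -0.34, -0.02 and -0.01. In POR-null arrays Mcm7 had 8.84, 8.54 and 8.09 on control diet and 7.89, 8.69 and 8.57 on quercetin. Its POR-null quercetin array 1 was the lowest of all 12 and its control array 1 the highest. In wild type arrays Rrm1 had 6.67, 6.86 and 6.44 on control diet and 6.81, 6.88 and 6.72 on quercetin, a range of 0.44 against 1.16 in POR-null arrays. For Bub1 the POR-null values were 4.77, 4.47 and 4.44 on control diet and 4.41, 4.81 and 4.29 on quercetin, all at low signal.

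The interaction stood at -0.39 for Mki67 (interval -1.29 to 0.52), -0.38 for Top2a (-1.29 to 0.52), -0.23 for Cdk1 (-1 to 0.54) and -0.38 for Rrm2 (-1.38 to 0.61). It stood at -0.18 for Pcna (interval -0.69 to 0.34), -0.33 for Mcm2 (-0.88 to 0.22) and 0.04 for Aurka (-0.36 to 0.43). None of these intervals left out 0. Without POR-null quercetin array 1 the 30 genes were at 15 higher and 15 lower, and without POR-null control array 3 at 3 higher and 27 lower. In that last case Mcm2, Mcm7, Rrm2 and Mki67 had an unadjusted p under 0.05 (all probe sets 8%) and 0 genes passed after adjustment by limma. Averaged over both genotypes the median for quercetin was -0.01, and averaged over both diets the median for genotype was -0.08.

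The genes spread widely between pools of 1 group, above all in POR-null mice. The median SD of the 30 genes over the 3 arrays was 0.13 in wild type control, 0.16 in wild type quercetin, 0.33 in POR-null control and 0.28 in POR-null quercetin arrays. Over all probe sets it was 0.11, 0.12, 0.13 and 0.11 in the same order. The spread within groups was larger in POR-null than in wild type mice for 26 of the 30 genes, against 53.3% of all probe sets. The genes moved together and so are not 30 separate measurements of it, and the difference in spread has no test here. The 4 exceptions were Tyms, Bub1b, Ttk and Kif11.

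**Figure D2:**
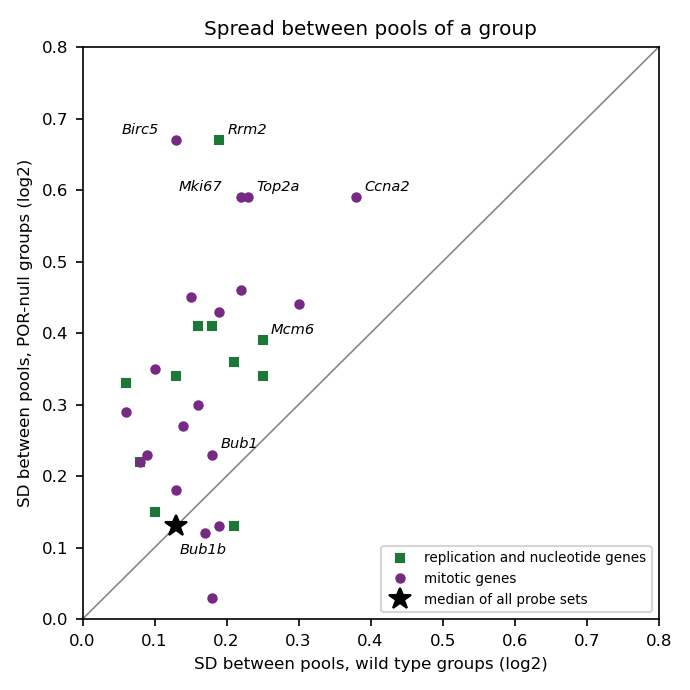
SD between the pools of a group for each of the 30 genes, pooled over both diets, in wild type (x axis) and POR-null mice (y axis), both in log2 units; the line marks equal spread and the star the median of all probe sets (0.13 on both axes). Birc5 and Rrm2 lie highest, at 0.67 in POR-null mice against 0.13 and 0.19 in wild type mice.

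Genes of both classes had this pattern. Birc5, the survivin subunit of the chromosomal passenger complex, had 7.31, 7.14 and 5.91 in POR-null control and 6.08, 7.18 and 6.48 in POR-null quercetin arrays. In wild type arrays it had 6.91, 6.84 and 6.61 on control diet and 6.66, 6.61 and 6.79 on quercetin, a range of 0.30 over 6 arrays against 1.40 in POR-null mice. Both POR-null groups thus held a pool above and a pool below every wild type pool. Mki67 ranged over 1.45 in POR-null and 0.60 in wild type mice, Top2a over 1.50 and 0.57, and Rrm2 over 1.60 and 0.41. Pcna ranged over 0.73 and 0.18, and Cdc20 over 0.82 and 0.18.

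Both measured cyclins and Cdca3 showed it too. Ccna2, a cyclin of S phase and mitotic entry, had 8.36, 8.30 and 7.16 in POR-null control and 7.36, 8.28 and 7.53 in POR-null quercetin arrays. It also varied in wild type mice, with 8.32, 7.75 and 7.65 on control diet and 7.85, 7.59 and 8.36 on quercetin. Ccnb2, a mitotic cyclin, had 6.91, 6.59 and 5.84 in POR-null control and 6.42, 6.96 and 6.34 in POR-null quercetin arrays. Cdca3, which triggers mitotic entry, had 7.03, 6.53 and 5.90, then 6.31, 6.72 and 6.40. In all 3 genes POR-null control array 3 was the lowest of the 12 arrays.

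**Figure D3:**
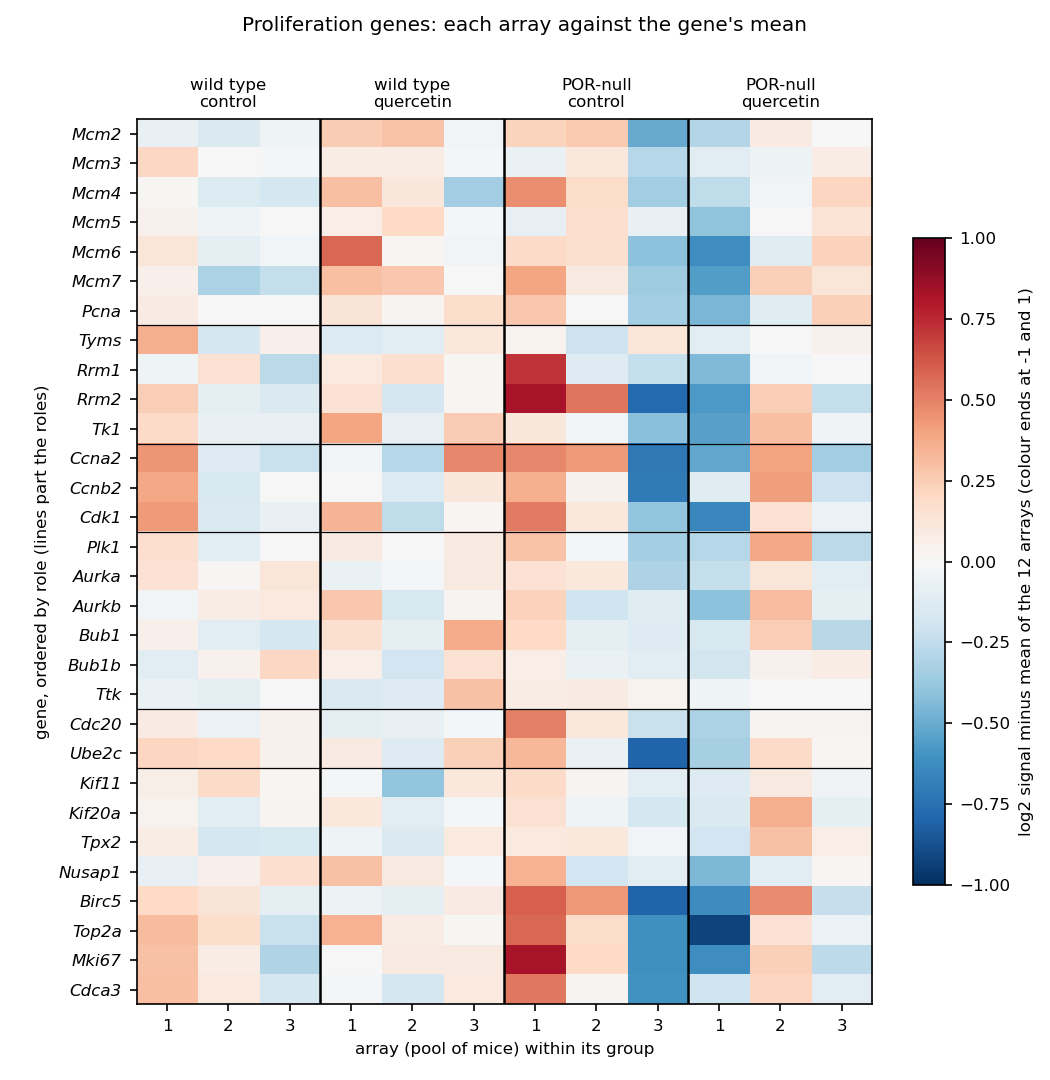
Each of the 30 genes (rows, by role) in each of the 12 arrays (columns, by group), coloured by its log2 signal minus the mean of that gene over all arrays. POR-null control array 1 is mostly red and holds the highest value of 13 genes, while POR-null control array 3 and POR-null quercetin array 1 are mostly blue and hold the lowest value of 11 and 13 genes.

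The order of the pools was much the same from gene to gene. Within POR-null control, array 1 was the highest of the 3 for 24 of 30 genes and array 3 the lowest for 26, against 26.9% and 31.4% of all probe sets. Within POR-null quercetin, array 1 was the lowest for 28 genes and array 2 the highest for 19 (35.1% and 37.8% of all probe sets). Within wild type control, array 1 was the highest for 23 genes (37%). In wild type quercetin no array led in this way: array 3 was the highest for 14 genes (37.7%) and array 1 for 10 (33.1%). Array 2 was the lowest there for 16 genes (35.8%), of which 13 were mitotic.

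Replication and mitotic genes ranked the pools alike, with an exception on quercetin. The mean of the 11 replication and nucleotide genes was 6.98, 6.80 and 6.37 in POR-null control arrays and that of the 19 mitotic genes 6.51, 6.23 and 5.81. In POR-null quercetin arrays the means were 6.30, 6.75 and 6.77 for replication and 5.83, 6.38 and 6.07 for mitosis, so that array 3 was as high as array 2 for the former and between the others for the latter. Wild type control arrays had 6.81, 6.62 and 6.61 for replication and 6.32, 6.17 and 6.13 for mitosis. In wild type quercetin arrays the classes parted, with 6.90, 6.77 and 6.71 for replication and 6.24, 6.06 and 6.29 for mitosis.

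**Figure D4:**
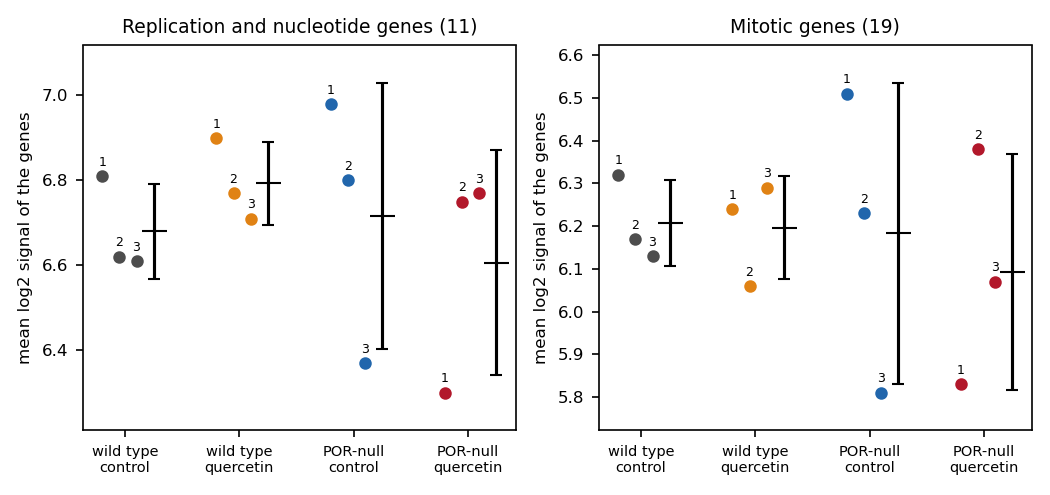
Mean log2 signal of the replication and nucleotide genes (left, 11 genes) and the mitotic genes (right, 19 genes) in each array, numbered within its group; the bars beside the points give the group mean and 1 SD over 3 arrays. The mean of all 30 genes spans 0.68 over the POR-null arrays and 0.19 over the wild type arrays.

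With group means taken out, the mean pairwise correlation (Pearson's r) of the 30 genes over the 12 arrays was 0.55. It was 0.70 among the 21 genes brighter than the median probe set, 0.54 among replication and nucleotide genes, 0.63 among mitotic genes and 0.01 over all probe sets. These are descriptions over arrays that all the genes share and carry no test. The genes closest to the mean of the others were Rrm2 (0.95), Ube2c and Top2a (0.94 each). Those farthest from it were Tyms (0.10) and Ttk (0.13), both with low signal, while Mcm5, a helicase subunit, had 0.38 and Bub1b, the BubR1 checkpoint kinase, 0.42.

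The genes not yet described by array differed in how closely they kept this order. Mcm5 had 5.40, 5.65 and 5.41 in POR-null control arrays, so that array 1 was not high. Bub1b kept the order of the POR-null control pools with small steps, at 6.21, 6.08 and 6.04. In POR-null quercetin arrays it had 5.96, 6.19 and 6.22, with array 1 the lowest but array 3 above array 2. Its range was 0.26 in POR-null mice and 0.40 in wild type mice. Kif11, the motor that pushes spindle poles apart, had its lowest value, 4.97, in wild type quercetin array 2 and between 5.23 and 5.55 in POR-null arrays. Tyms, which makes thymidylate, and Kif20a, a motor of cell division, stayed at background levels, and Tk1, which salvages thymidine, was highest in wild type quercetin array 1 (7.46) and lowest in POR-null quercetin array 1 (6.52). Mcm4, a helicase subunit, had 6.48 in both wild type quercetin array 3 and POR-null control array 3, its lowest values, and 7.29 in POR-null control array 1. Plk1, the Polo kinase, was highest in POR-null quercetin array 2 (6.58), as was Aurkb, the kinase of the passenger complex (4.87).

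The other 27 probe sets of the genes gave no call either. By limma 0 passed after adjustment in any comparison, and their median difference lay between -0.02 and 0.03 throughout. At most 2 had an unadjusted p under 0.05 in any comparison, against 2.39% to 6.79% of all probe sets. The lower medians of the brightest probe sets were not shared, since the others had -0.02 for quercetin in POR-null mice, -0.02 for genotype on quercetin diet and -0.01 for the interaction. Those with an unadjusted p under 0.05 belonged to Mcm3 and Nusap1.

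The other genes of the cycle were measured through lists of 14 G1 regulators and E2F factors, 27 other replication factors, 40 other mitotic genes and 17 inhibitors. By limma 0 of these passed after adjustment in any comparison. At an unadjusted p under 0.05 there were 0, 2, 0 and 0 genes in that order for quercetin in wild type mice and 0, 0, 0 and 1 for quercetin in POR-null mice. There were 1, 1, 0 and 2 for genotype on control diet, 0, 2, 0 and 2 for genotype on quercetin diet and 1, 2, 2 and 0 for the interaction. The shares of all probe sets in these comparisons, in the same order, were 5.15%, 2.82%, 6.79%, 2.39% and 4.74%. The other replication factors were higher on quercetin in 23 of 27 cases in wild type mice (median 0.07) and in 15 of 27 in POR-null mice (median 0.01).

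Rpa1, a subunit of the protein that coats single-stranded DNA at replication forks, was named in 4 of these comparisons. It had 8.17, 7.94 and 7.92 in wild type control, 8.48, 8.62 and 8.45 in wild type quercetin, 8.63, 8.65 and 8.03 in POR-null control and 7.98, 8.34 and 8.19 in POR-null quercetin arrays. Wild type control lay below wild type quercetin without overlap, whereas the POR-null diets overlapped. The differences were 0.51 (SE 0.16) for quercetin in wild type mice and -0.27 (SE 0.16) in POR-null mice. The interaction was -0.77 (SE 0.22, limma adjusted p = 0.998). Its second probe set gave 0.33, -0.26 and -0.59 for these 3 differences, in the same directions. Orc6, a subunit of the origin recognition complex, had an interaction of -0.51 (SE 0.19) and Pold1, the catalytic subunit of polymerase delta, a difference of 0.23 (SE 0.09) on quercetin in wild type mice, with adjusted p of 0.998 and 0.954 by limma.

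Among the remaining lists Skp2, which marks the inhibitor p27 for destruction, stood at 6.08 in POR-null against 5.84 in wild type control arrays (0.25, SE 0.10, limma adjusted p = 0.719), while its other 5 probe sets differed by -0.17 to 0.06. Wee1, the kinase that holds Cdk1 inactive, had an interaction of 0.35 (SE 0.16) and Racgap1, which positions the cleavage furrow, one of 0.42 (SE 0.19), both at a limma adjusted p of 0.998. The second probe set gave 0.17 for Wee1 and -0.12, the other way, for Racgap1. Of the inhibitors, Fzr1, the interphase activator of the anaphase promoting complex, differed by -0.30 (SE 0.11) and Rb1, the retinoblastoma protein, by 0.36 (SE 0.17) between genotypes on control diet (limma adjusted p = 0.718 and 0.734). Cdkn1c, the inhibitor p57, differed by 0.33 (SE 0.10) between genotypes on quercetin (limma adjusted p = 0.998). Btg2, an antiproliferative early response gene, had 9.05, 8.93 and 8.99 in POR-null control and 8.56, 8.46 and 8.50 in POR-null quercetin arrays, without overlap (-0.48, SE 0.11, limma adjusted p = 1). Between genotypes on quercetin it differed by -0.37 (SE 0.11, limma adjusted p = 0.998). Its second probe set, with a mean of 8.82, gave -0.24 and -0.02 for these differences. These genes were named by the size of their p within lists and none passed.

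The other mitotic genes followed the pools in the same way as the 30 genes, while the mean of the G1 regulators varied little. The mean of the 40 other mitotic genes was 6.34, 6.07 and 5.87 in POR-null control and 5.89, 6.23 and 6.04 in POR-null quercetin arrays. In wild type arrays it lay between 6.07 and 6.19. For the 14 G1 regulators it was 6.29, 6.29 and 6.25 in POR-null control and 6.27, 6.33 and 6.27 in POR-null quercetin arrays. Single G1 regulators did vary, in both directions. From POR-null control array 3 to array 1 they differed by -0.60 to 0.65, with 6 higher and 8 lower in array 1. The 8 crypt stem and progenitor genes, with Lgr5 (5.80 to 6.28) and Ascl2 (6.24 to 6.66) among them, had means of 7.00, 6.96 and 6.95, then 6.90, 7.07 and 6.95. The other replication factors had 6.13, 6.07 and 5.94, then 5.89, 6.11 and 6.07.

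The labelled tissue carried its defining markers throughout, with Car1, a carbonic anhydrase of absorptive colonocytes, between 12.24 and 13.31 and Krt20, a keratin of mature epithelium, between 12.03 and 12.53. Array medians lay between 5.90 and 5.98, correlations between arrays between 0.981 and 0.995, and the difference between 3 prime and 5 prime control probe sets between 0.97 and 1.29 for actin. Some lists of genes of other cells differed widely between pools. Smooth muscle genes (10 of 10 measured) had list means of 5.94 to 6.15 in wild type control, 6.34 to 9.73 in wild type quercetin, 6.23 to 7.82 in POR-null control and 7.34 to 7.84 in POR-null quercetin arrays. The fibroblast and matrix list (10 of 10) ran from 5.43 to 7.33 and the list of B and plasma cells (10 of 12) from 5.88 to 7.65 over all arrays. The 10 of 12 pancreatic acinar genes ran from 5.96 to 9.93, and the MHC class II list (6 of 7) from 6.52 to 9.13. On quercetin the MHC class II median difference was 1.54 in wild type and -0.61 in POR-null mice. That of smooth muscle genes was 2.24 and 0.24, and that of acinar genes -1.21 and 1.70. By limma 0 of these genes passed the adjusted threshold. At an unadjusted p under 0.05 there were 5, 8 and 1 of them in wild type mice, in the same order, against 5.15% of all probe sets. In POR-null mice there were 0, 0 and 5, against 2.82%.

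**Figure D5:**
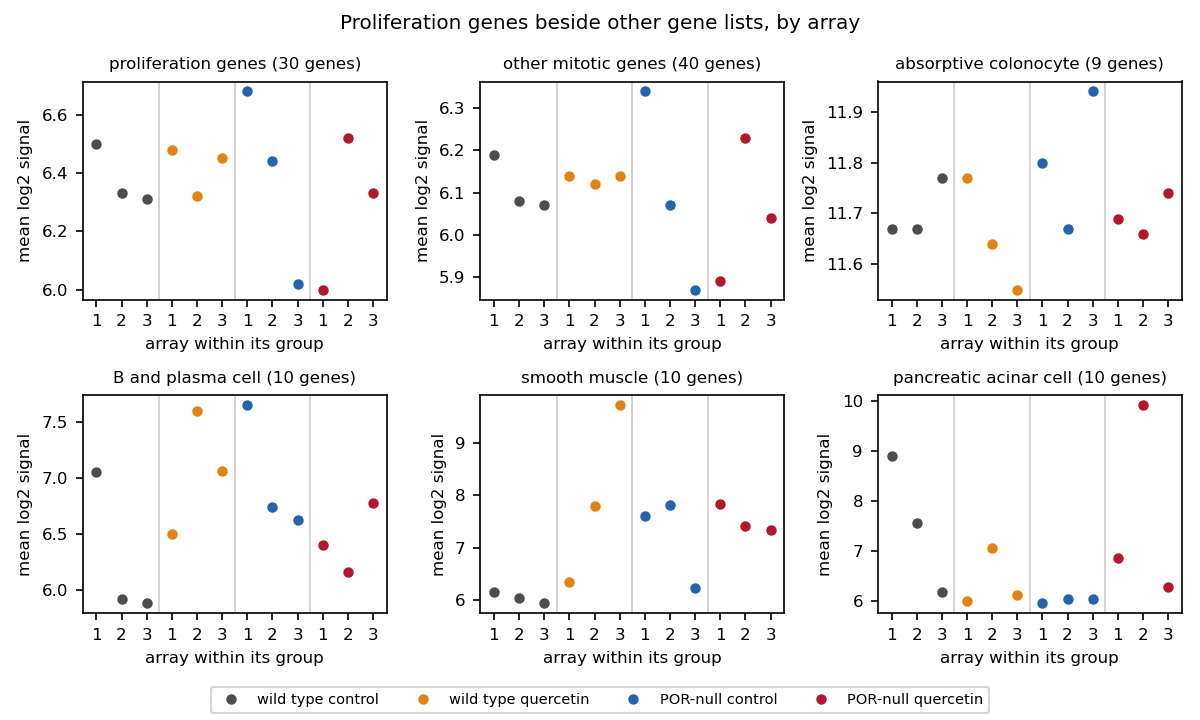
Mean log2 signal by array (x axis, 3 arrays in each of 4 groups) for the 30 proliferation genes and 5 other gene lists, each panel with its own y axis. POR-null quercetin array 2, at 6.52 for the proliferation genes, is the highest array for acinar genes (9.93), and POR-null control array 1, at 6.68, is the highest for B and plasma cell genes (7.65).

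These lists moved with the proliferation genes in some groups and against them in others. In POR-null control arrays, where the 30 genes averaged 6.68, 6.44 and 6.02, smooth muscle genes averaged 7.61, 7.82 and 6.23, B and plasma cell genes 7.65, 6.74 and 6.62 and absorptive colonocyte genes 11.80, 11.67 and 11.94. In POR-null quercetin arrays, where the 30 genes averaged 6.00, 6.52 and 6.33, smooth muscle genes averaged 7.84, 7.41 and 7.34, B and plasma cell genes 6.40, 6.16 and 6.77 and acinar genes 6.86, 9.93 and 6.28. The low pool of the control diet was thus low in smooth muscle genes, and the low pool of the quercetin diet was high in them. Germinal centre B cell genes (5 of 8 measured), a mark of dividing lymphocytes, averaged 5.15, 5.16 and 5.34 in POR-null control arrays, highest in the pool where the 30 genes were lowest. In wild type control arrays they averaged 5.28, 5.13 and 5.16, highest in array 1, as were the 30 genes. The part of the tissue mix in the spread of the 30 genes was not tested.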

How the data were processed

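The 12 arrays were read from the table of values that the authors deposited. Their unit was taken to be log2 signal, from the deposited values themselves, which ran from 2.7 to 14.09. Per the submitters' processing notes MAS5 and RMA were used, without a version or a role; their settings were not given in the sources used here. Deposited values entered without change. Of 22690 probe sets 64 Affymetrix controls were left out and 22626 tested; 20380 had 1 gene symbol, 691 several and 1555 none in the supplied annotation. A single fit over all 12 arrays with 4 group means was made with limma 3.58.1 (lmFit, eBayes with trend) in R 4.3.3, with 8 residual and 12.91 total degrees of freedom. Tests were two-sided, p was adjusted over all probe sets tested after Benjamini and Hochberg, and the threshold was 0.05. The fit was tested on simulated data. Intervals are 95% intervals of that fit, SD is the spread over 3 arrays, and the number of arrays limits the precision.

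The 30 genes, the other gene lists and the motifs were chosen with earlier results of these data known. In each of the 4 group comparisons and the interaction the 3 genes of the smallest p were named, besides Mki67, Top2a, Cdk1, Pcna, Mcm2, Rrm2 and Aurka, which were fixed; of each list of other cycle genes up to 3 of the smallest p were eligible. Alternatives were other settings of the fit, array weights, normalization, a filter on low signal, all probe sets of a gene, a replicate block and leaving out arrays. The deleted gene and the genes without a named probe set were left out.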

Additional observations from a re-analysis of the deposited data

How the results depend on the processing

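The comparisons were computed again under 23 other settings. A fit of only the groups compared was made for the group comparisons but not for the interaction or the averages. In each of them 0 genes passed by limma, of 30 or of the 21 left by the filter on low signal, with 0.233 as the smallest adjusted p. Of 158 recomputed medians 0 moved by more than 0.22, the SD of the genes' mean between arrays of a group. That yardstick was wider than every median itself, the largest being -0.15 for the interaction. It could therefore not show a median reaching 0 or turning sign. Over all 22626 probe sets, calls were not always 0: for genotype on control diet 399 passed with array weights (20.5% at an unadjusted p under 0.05) and 41 without wild type control array 1, and other settings gave 0 to 3. Of 935 recomputed values of named genes 34 turned sign, 28 of them with 1 array left out. With array weights Cdk1 turned to 0.03 for quercetin in wild type mice, and Mcm3 to 0.02 and Top2a to 0.20 for genotype on control diet; with quantile normalization Cdk1 turned to -0.02 for genotype on control diet. Without the 3 arrays of the highest acinar list, an alternative chosen after seeing the data, Cdk1 was at 0.11 for quercetin in wild type mice and Top2a at 0.27 for genotype on control diet. The array of the highest smooth muscle list, also chosen after seeing the data, was wild type quercetin array 3. Leaving it out repeated the setting without that array and turned no named gene.

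With each array left out in turn, the median difference of the 30 genes ran from -0.03 to 0.11 for quercetin in wild type mice, from -0.22 to 0.04 for quercetin in POR-null mice, from -0.14 to 0.13 for genotype on control diet, from -0.26 to 0 for genotype on quercetin diet and from -0.31 to 0 for the interaction. For quercetin in wild type mice Cdk1 ran from -0.19 to 0.14, Top2a from -0.10 to 0.17 and Mki67 from -0.13 to 0.17. For quercetin in POR-null mice Mcm2 ran from -0.32 to 0.07, Pcna from -0.27 to 0.08, Rrm1 from -0.45 to 0.03 and Aurka from -0.20 to 0.03. For genotype on control diet Mcm2 ran from -0.05 to 0.33, Pcna from -0.20 to 0.11, Rrm2 from -0.12 to 0.68, Cdk1 from -0.21 to 0.24, Aurka from -0.20 to 0.03, Top2a from -0.30 to 0.29 and Mki67 from -0.23 to 0.49. For genotype on quercetin diet Cdk1 ran from -0.39 to 0.01. The causes were not tested. With the replicate block the median was 0.03 for quercetin in wild type and -0.07 in POR-null mice, and no call changed. Whether the numbers pair the arrays is not stated in the labels. Of 18 same-numbered pairs 6 correlated above 0.1 (from -0.19 to 0.26). This cannot decide it, as no differently numbered pairs are given beside them.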
